A study of Rattus norvegicus with 10 samples.

Results

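The interval of rat chromosome 1 described here runs from 202300000 to 204200000 in the RN4 assembly and was chosen as the stretch thought to hold the imprinted H19-Igf2 and Kcnq1 domains. Its members are the regions of the deposited count matrix that lie wholly inside these limits, 627 of 716492 regions in all, and 1 region that crossed a limit was left out. The measurement was methyl-capture sequencing, in which fragments of genomic DNA are pulled down by a protein that binds methylated CpG sites and then sequenced, so that the number of sequenced fragments (tags) in a region gives the abundance of captured DNA. The matrix holds 10 libraries, 1 per rat, from adult male Sprague-Dawley rats, an outbred stock. In the 5 TBI rats (rats 6 to 10) a lateral fluid-percussion pulse was given over the left parietal lobe under anesthesia, and the 5 sham rats (rats 1 to 5) had the same anesthesia and surgery without the pulse. Tissue with the CA3 field and the dentate gyrus, labelled as dorsal hippocampus, was taken from the left side 3 months after the operation. The TBI rats had no EEG recording, so that the group is defined by injury and not by seizures. Tissue was not sorted, so that changes within cells and changes in the mix of cells cannot be told apart.

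Imprinted genes are expressed from only 1 parental allele, and the choice depends on DNA methylation that is set in the germ line and kept in the tissues of the offspring. In the H19-Igf2 domain a control region upstream of H19, which encodes a long noncoding RNA, is methylated on the paternal allele, from which the growth factor gene Igf2 is expressed. In the Kcnq1 domain a control region inside the potassium channel gene Kcnq1 is methylated on the maternal allele, and on the other allele the noncoding transcript Kcnq1ot1 starts there and silences neighbours such as Cdkn1c, a cell cycle inhibitor, and Phlda2, a regulator of placental growth. In the brain, Igf2 is expressed mainly by the choroid plexus and the meninges. Of 15 genes listed for these domains, 13 were found by name in the RefSeq annotation of the GRCr8 assembly, all on chromosome 1, in the order H19, Igf2, Ins2, Th, Ascl2, Cd81, Trpm5, Kcnq1, Cdkn1c, Slc22a18, Phlda2, Nap1l4 and Osbpl5. Kcnq1ot1 and Tnfrsf23 were not matched. An RN4 annotation was not used here, so that these genes could not be placed on the interval, the name of the interval was not checked against the data, and regions are given by RN4 position alone. The counts are not split by parental allele.

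Libraries held 13597924 to 21672940 tags, of which 8830 to 15080 per rat lay in the interval (123715 tags over 10 rats). Regions were tested only where the tags summed over rats reached the 50th percentile of the matrix (117 tags), and 272 of the 627 regions (43.4%) did so, against 48.9% in the rest of chromosome 1. These 272 regions held 86.1% of the interval's tags, at a median depth of 26 tags in a rat, while the median depth of the 355 regions below the filter was 3 tags. Sham rat 5 stood apart from the other libraries in the interval and in the rest of chromosome 1, with more tags in weak regions and fewer in strong ones. Where a count, a difference or a log2 fold change recomputed without this library moved by over 1.5 times, both values are given. P-values were not held to this rule, and most are given with all 10 rats only. Another exception is the log2 fold change of regions not named for a small p, among them the 5 with the highest CPM. It is given with all 10 rats only, so that its size and sign without sham rat 5 are not shown. In most of these strong regions sham rat 5 was the lowest rat.

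The interval was dense in captured regions of the matrix but broken by sparse stretches. Regions entered the matrix where pairs of libraries differed, so that their density is not the density of all captured DNA. Over its 1900 kb there were 330 regions per Mb, against 270 in the rest of chromosome 1, and regions covered 22.7% of its bases, against 18.8%. Tags per Mb were close, 65100 against 64000, because each region held fewer tags on average, 197 summed over 10 rats against 237. Region length was alike, with a median of 574 bp (quartiles 440 and 796 bp) against 572 bp. The interval was not extreme for the chromosome. Of 141 other windows of equal width, 55 held more regions and 61 held more tags.

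In the 38 bins of 50 kb that make up the interval, the median was 19.5 regions per bin (range 0 to 31), against 14 in the 5321 other bins of chromosome 1 (quartiles 6 and 21). The ratio of the medians was 1.39. Of the 38 bins, 16 (42.1%) were above the upper quartile of the rest of the chromosome and 8 were below its lower quartile. The interval thus held both crowded and nearly empty bins, and 4 of its bins (10.5%) had no region, against 5.11% in the rest. The bins with the most regions began 850 kb (31 regions), 400 kb (30 regions) and 1450 kb (29 regions) from the start of the interval. The last of these shared its count with the bin at 1100 kb.

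**Figure D1:**
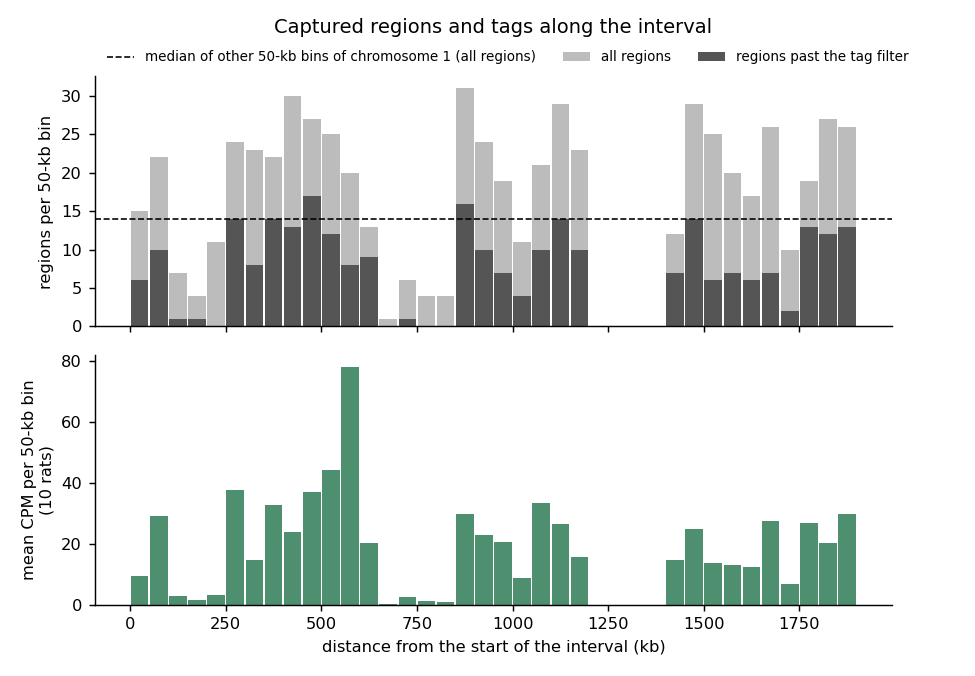
Number of captured regions per 50-kb bin (upper panel, light bars for all regions and dark bars for those past the tag filter) and mean CPM per bin over 10 rats (lower panel) against distance from the start of the interval in kb. The dashed line is the median of 14 regions in the other bins of chromosome 1. Crowded bins alternate with sparse ones, the bins from 1200 to 1400 kb are empty, and the bin at 550 kb stands above the rest in CPM.

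Bins at or above the chromosome's median of 14 regions fell into 6 runs. Together these runs took 60.5% of the bases and held 544 regions and 90.8% of the tags. The run from 250 to 600 kb was the largest, with 171 regions, 38.3% of its bases covered and 38.9% of the interval's tags. The others lay at 0 to 100 kb (37 regions, 5.62% of tags), 850 to 1000 kb (74 regions, 10.7%), 1050 to 1200 kb (73 regions, 11%), 1450 to 1700 kb (117 regions, 13.4%) and 1750 to 1900 kb (72 regions, 11.2%). The 15 bins between the runs held 83 regions and 9.2% of the tags.

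The longest sparse stretch was among the longest of the chromosome. No region of the matrix used here lay between 203494774 and 203722054, a gap of 227 kb, and 16 of 72521 gaps between neighbouring regions of chromosome 1 were at least as long. Further gaps of 80.6 kb (202953907 to 203034536) and 36.1 kb (203056342 to 203092492) both lay in the sparse stretch from 600 to 850 kb, which held 28 regions. The typical gap was shorter than elsewhere, with a median of 939 bp in the interval and 1178 bp in the rest of chromosome 1.

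Abundance is given as CPM, in which tags are divided by the library's total after trimmed mean (TMM) normalization and scaled to a common total of 1000000 tags. The scale was set separately for regions and for bins. The bin at 550 kb held the most tags, 13993 over 10 rats, and was at the 98.7th percentile of the bins of chromosome 1. Its CPM was 86.9, 65.6, 83.6, 99.1 and 58.3 in sham rats 1 to 5 and 71.8, 84.1, 79.2, 80.4 and 72.6 in TBI rats 6 to 10. The sham rats lay on both sides of the TBI rats, with sham rat 4 highest and sham rat 5 lowest, and the means were 78.7 ± 16.6 and 77.6 ± 5.27 (SD, n = 5 rats each). Its neighbour at 500 kb followed with a mean of 44.2 CPM. The bins at 250, 450 and 1050 kb came next, with means of 37.7, 37 and 33.4 CPM.

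**Figure D2:**
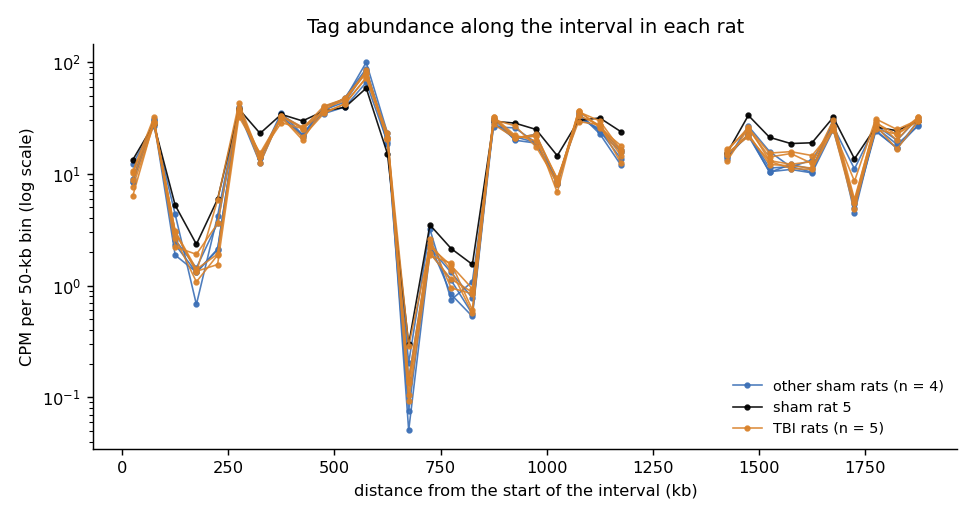
CPM per 50-kb bin on a log axis against distance from the start of the interval in kb, with 1 line per rat (sham rats 1 to 4, sham rat 5 and TBI rats 6 to 10) and breaks at bins without regions. The profiles of the 10 rats run together along the interval, and sham rat 5 lies above the others in many weak bins and below them in the bin with the most tags.

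The course of abundance along the interval was shared by all rats. Over the 33 bins that were tested (at least 100 tags), Pearson's r of the bin profile between pairs of rats ranged from 0.961 to 0.997. This is a description across bins, which share libraries and region lengths. Sham rats 2 and 5 had the lowest mean r with the other rats, 0.969 and 0.972, while the rest had 0.979 to 0.986.

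A few strong regions carried much of the signal. The 2 strongest regions held 7.8% of the interval's tags, the top 5 held 13% and the top 20 held 25.9%. Longer regions had more CPM, with a Spearman rho of 0.645 across the 272 tested regions. In the rest of chromosome 1, rho was 0.656 for length and the tags summed over rats. These are correlations across regions, which are not independent replicates. Per kb of region, the median was 2.2 CPM, with a range of 0.487 to 8.83.

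The strongest region was chr1:202870625-202874318, which was also the longest (3693 bp). It had 31.9, 26.5, 32.6, 38.7 and 20.2 CPM in sham rats 1 to 5 and 29.9, 32.9, 32.8, 31.6 and 27.2 CPM in TBI rats 6 to 10. Sham rat 4 was highest and sham rat 5 lowest, and all TBI rats lay between them. The means were 30 ± 6.96 and 30.9 ± 2.4 CPM (SD), and the fitted log2 fold change, TBI over sham, was 0.04 ± 0.16 (SE). In the rest of chromosome 1, 32 regions (0.0445%) had more tags.

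The second strongest, chr1:202862617-202865952 (3335 bp), lay in the same bin and had the most CPM per kb, 8.83. Its CPM was 37.9, 23.1, 32.6, 36.7 and 21.6 in sham rats and 26.6, 32.6, 28.5, 28.5 and 26.5 in TBI rats. Sham rats 5 and 2 were lowest and sham rats 1 and 4 highest, again on both sides of the TBI rats. The log2 fold change was -0.09 ± 0.17 (SE). The region between these, chr1:202867997-202870331, was named after its values were seen and had a mean of 10.4 CPM over 2334 bp.

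Another pair of adjoining regions lay in the bin at 500 kb. The first, chr1:202823528-202826076 (2548 bp), had 12, 9.73, 12.6, 13.6 and 9.09 CPM in sham rats and 11.3, 12.3, 12.9, 14.8 and 11.3 CPM in TBI rats. The groups overlapped, and the log2 fold change was 0.13 ± 0.15 (SE). Its neighbour chr1:202826314-202828540 (2226 bp) had 18.1, 12, 13.2, 16.8 and 6.92 CPM in sham rats and 12.8, 14.2, 14.6, 13 and 10.9 CPM in TBI rats. Sham rat 5 was lowest in both regions. The neighbour's log2 fold change was -0.03 ± 0.2 (SE).

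The remaining region of the top 5, chr1:203356418-203360037 (3619 bp), lay apart from these at 1058 kb. It had 12.3, 15.7, 15.5, 17.4 and 14.7 CPM in sham rats and 11.4, 14.3, 16.8, 15.6 and 15.2 CPM in TBI rats. Here sham rat 5 was in the middle of the rats and TBI rat 6 was lowest. The log2 fold change was -0.04 ± 0.14 (SE). In the rest of chromosome 1, 269 regions (0.374%) had more tags.

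**Figure D3:**
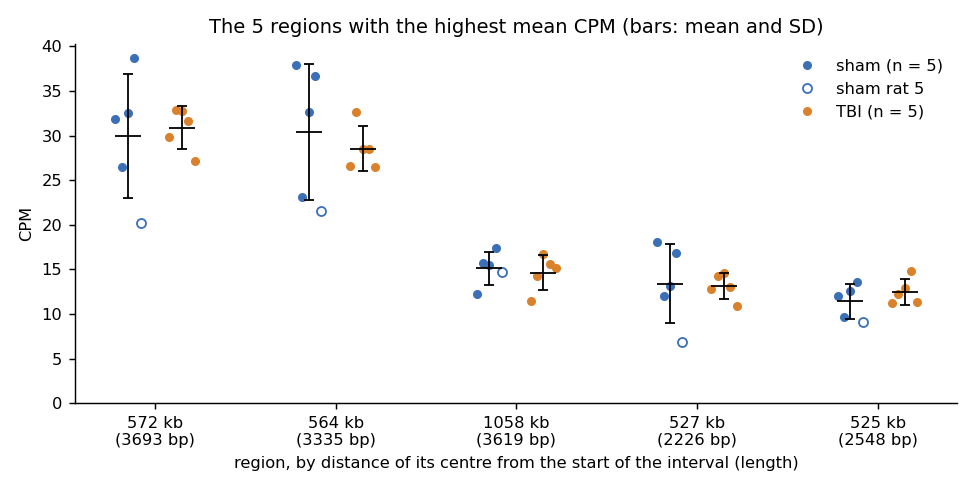
CPM of the 5 regions with the highest mean, 1 point per rat, with bars for the mean and SD of each group (n = 5 rats); regions are labelled by the distance of their centre from the start of the interval and by length. The groups overlap in all 5 regions, the SD of the sham rats is wider in 4 of them, and sham rat 5 (open circle) is the lowest rat in 4.

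Apart from strong regions, the interval held many that were near the limit of detection. Tags were present in every rat in 417 of 627 regions, and in 210 (33.5%) at least 1 rat had none, against 27.6% in the rest of chromosome 1. None of the 272 tested regions was without tags in any rat, so that absence was seen only below the filter, where depth limits what can be said. In 15 regions 1 rat alone had tags, 2 to 34 of them, and in all 15 it was sham rat 5. The share of such regions in the rest of chromosome 1 was not recorded, so that they are not shown to be particular to the interval.

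The number of interval regions without tags was 127, 59, 98, 132 and 2 in sham rats 1 to 5 and 99, 139, 86, 84 and 66 in TBI rats 6 to 10. Sham rat 5 thus had tags nearly everywhere, and the other sham rats covered nearly the same range as the TBI rats. The means were 83.6 ± 54.1 and 94.8 ± 27.4 regions (SD). The difference of 11.2 regions was within the spread between rats (two-sided exact permutation test over rats, p = 0.714, adjusted over 3 measures 0.952; the smallest p possible is 0.00794). Without sham rat 5 it turned to -9.2 regions.

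The interval took 0.682, 0.727, 0.696, 0.683 and 0.832% of the tags of chromosome 1 in sham rats and 0.686, 0.684, 0.72, 0.745 and 0.733% in TBI rats. Sham rat 5 was the highest of all, and the other rats lay close together. The TBI rats were lower by a mean difference of -0.0104 percentage points, which was within the spread between rats (exact permutation test, p = 0.825, adjusted 0.952). Without sham rat 5 the difference was 0.0166.

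The 10 bins with the most tags held 58.4, 52.7, 58, 59.5 and 47.2% of the interval's tags in sham rats and 54.8, 57.2, 55.7, 55.7 and 53.3% in TBI rats. Sham rats 5 and 2 had the most even spread of tags along the interval. The difference between group means was 0.191 percentage points (exact permutation test, p = 0.952, adjusted 0.952), and it was -1.8 without sham rat 5.

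Rat-to-rat variation was measured as the SD of log2 CPM within groups, pooled over sham and TBI. This SD includes counting error, which is larger in regions with few tags and was not separated from differences between rats. The median over the tested regions was 0.398 (quartiles 0.305 and 0.516), against 0.381 in the rest of chromosome 1 (quartiles 0.286 and 0.505), and 0.353 against 0.338 without sham rat 5. Variation fell with abundance, so that regions were also set beside others of chromosome 1 in the same of 10 equal classes of abundance. The interval's median was lower in 4 of the 10 classes. At the same abundance, 10 of 272 regions were above the 95th percentile of chromosome 1 and 8 were below the 5th percentile. By definition, about 5% of the rest of chromosome 1 lies beyond each of these limits, a larger share than in the interval on either side. The edgeR dispersion had a median of 0.0592 in the interval and 0.0547 in the rest of chromosome 1.

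**Figure D4:**
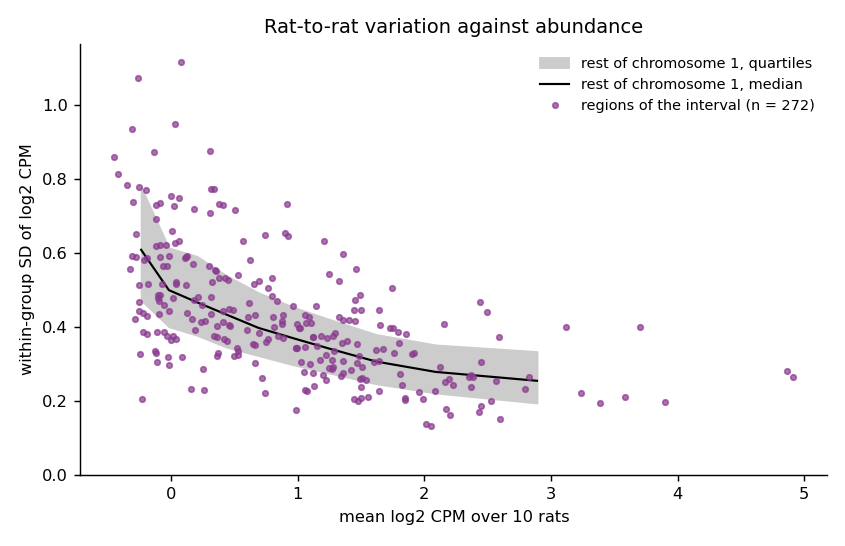
Within-group SD of log2 CPM against mean log2 CPM over 10 rats for the 272 tested regions of the interval (points), with the median (line) and quartiles (band) of the rest of chromosome 1 in 10 classes of abundance. SD falls from left to right, and the points lie around the line of the rest of the chromosome.

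Sham rat 5 contributed most to this spread. Over the tested regions, its median absolute deviation from the mean of its group was 0.436 on the log2 scale, against 0.175 to 0.302 for the other 9 libraries, and was 0.423 in the rest of chromosome 1. It was the highest rat in 88 of 272 tested regions (32.4%; 26% in the rest of chromosome 1) and the lowest in 48 (17.6%; 23%). Below the filter it was highest in 71.5% of the regions, against 63.4% in the rest of chromosome 1. With the tested regions split into 4 equal classes of abundance, its median log2 difference from the other rats was 0.51 in the weakest class, 0.41 and 0.19 in the middle classes and -0.15 in the strongest. In the rest of chromosome 1, split in the same way, the difference went from 0.52 in the weakest class to -0.31 in the strongest. Sham rat 2 shifted the same way, with a difference of -0.44 between the strongest and weakest classes, while sham rat 4 and TBI rat 7 shifted the opposite way, with 0.49 and 0.45.

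The most variable region with at least 10 tags per rat on average was chr1:203247606-203248782, with an SD of 1.12. Its tags numbered 3, 32, 15, 9 and 63 in sham rats 1 to 5 and 5, 11, 26, 13 and 21 in TBI rats 6 to 10. Sham rat 5 was highest and sham rat 1 lowest. Without sham rat 5 the SD was 0.89.

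The second, chr1:203354646-203355278 (SD 1.07), had 2, 18, 17, 10 and 44 tags in sham rats and 11, 2, 19, 12 and 12 in TBI rats. The spread was thus between sham rat 5 at one end and sham rat 1 and TBI rat 7 at the other. It lay close to the strong region chr1:203356418-203360037, in which the rats ranged from 11.4 to 17.4 CPM. The other 3 of the most variable regions were chr1:204127563-204128676 (SD 0.95), chr1:204192528-204193077 (SD 0.93) and chr1:202573031-202573673 (SD 0.87). Sham rat 5 had the most tags in chr1:204127563-204128676 (45) and chr1:202573031-202573673 (57), and shared the highest count of 26 with sham rat 2 in the other.

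The steadiest region was chr1:204079203-204080085 (882 bp), with an SD of 0.13. Its CPM was 4.01, 3.94, 3.85, 4.44 and 3.46 in sham rats and 3.7, 4.33, 3.73, 4.47 and 4.56 in TBI rats. All 10 rats lay close together. Next were chr1:203775735-203776921 (3.46 to 4.83 CPM, SD 0.14) and chr1:202564412-202565882 (5.09 to 7.08 CPM, SD 0.15). These were at or below the 9.45th percentile of SD at their abundance.

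Correlations between neighbouring regions were near 0 at the median. For 193 pairs of tested regions up to 5 kb apart, the median correlation of their deviations across rats was 0.07, against 0.03 in the rest of chromosome 1, and 0.03 in both without sham rat 5. These values describe pairs that share libraries and depth.

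The comparison of TBI with sham rats addresses whether captured methylated DNA differed 3 months after the injury. In the interval, 1 of 272 tested regions (0.368%) fell below an unadjusted p of 0.01 in the quasi-likelihood test of edgeR, against 0.266% of all 358249 tested regions, so that the share was near the background. The single region was lower in TBI rats (background for lower 0.168%), and 0 regions were higher (background 0.098%). The looser threshold of 0.05 was passed by 7 regions (2.57%, against 2.45% in all tested regions), of which 5 were higher and 2 lower. Over all tested regions, both shares were lower than evenly spread p-values would give at these thresholds. The fit thus called few regions anywhere, and few calls in the interval do not show that the groups were equal. After Benjamini-Hochberg adjustment in edgeR, no region passed 0.05 in the interval or in the whole matrix (background 0%), and the smallest adjusted p in the interval was 0.999987. The libraries are 1 per rat, so that the spread is between animals.

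Fitted changes went both ways. The fitted log2 fold change was above 0 in 131 of 272 regions (48.2%, against 46.5% in all tested regions), with a median of -0.01 and a range of -0.92 to 1.06. The CPM of the groups did not overlap in 3 regions (1.1%; background 0.502%).

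The region with the smallest p was chr1:202305555-202306486 (931 bp), near the start of the interval. It had 2.86, 3.78, 3.38, 3.24 and 3.19 CPM in sham rats (35, 49, 64, 59 and 47 tags) and 2.21, 1.8, 2.52, 1.61 and 2.33 CPM in TBI rats (28, 25, 50, 28 and 45 tags). Every TBI rat was below every sham rat. The means were 3.29 ± 0.334 and 2.09 ± 0.379 CPM (SD), and the log2 fold change was -0.64 ± 0.18 (SE; edgeR, unadjusted p = 0.00223). The regions on either side did not pass the threshold, with log2 fold changes of 0.35 and -0.44 before it and -0.13 and -0.43 after it. The bin that holds it had a log2 fold change of -0.24 (edgeR, unadjusted p = 0.165).

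Just outside the threshold was chr1:203436271-203436903 (632 bp, edgeR, unadjusted p = 0.0161). It had 7, 8, 6, 5 and 11 tags in sham rats and 8, 7, 20, 25 and 29 tags in TBI rats. TBI rats 8, 9 and 10 were above all sham rats, while TBI rats 6 and 7 lay among them. The means were 0.505 ± 0.202 and 1.02 ± 0.453 CPM (SD), and the log2 fold change was 1.06 ± 0.4 (SE).

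The next of the higher regions was chr1:203740692-203741028, at 0.611 ± 0.209 CPM in sham and 1.1 ± 0.217 CPM in TBI rats (SD; log2 fold change 0.81; edgeR, unadjusted p = 0.0261). TBI rats 6 to 9 were above all sham rats, and TBI rat 10 was among them.

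In chr1:202922820-202924102 (1282 bp) the groups did not overlap. Its CPM was 2.05, 2.86, 3.43, 3.24 and 3.32 in sham rats and 3.86, 3.97, 3.63, 3.61 and 4.92 in TBI rats, a log2 fold change of 0.41 ± 0.18 (SE; edgeR, unadjusted p = 0.0288). TBI rat 10 was highest and sham rat 1 lowest. The remaining regions with a p under 0.05 that were higher in TBI rats were chr1:204084500-204085781 (log2 fold change 0.38) and chr1:202381741-202383603 (0.33).

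The groups also did not overlap in chr1:204199371-204199858, named after its values were seen. It had 1.72, 1.7, 1.64, 1.76 and 1.49 CPM in sham rats and 2.68, 2.31, 1.82, 1.89 and 1.86 CPM in TBI rats. The lowest TBI rat was only just above the highest sham rat, and the log2 fold change was 0.33 (edgeR, unadjusted p = 0.123).

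Of the regions that were lower in TBI rats, chr1:202656669-202658395 came second, at 2.93 ± 0.876 CPM in sham and 2.12 ± 0.255 CPM in TBI rats (SD; log2 fold change -0.45; edgeR, unadjusted p = 0.0474). Without sham rat 5 its log2 fold change was -0.29 (edgeR, unadjusted p = 0.181). Sham rats 2 and 5 were high, and the other sham rats lay among or just above the TBI rats. In chr1:202793010-202793621 the log2 fold change of -0.92 went with a single library, sham rat 5, at 2.85 CPM, against 0.229 to 1.08 CPM in the other 9 rats. Without that library it was below the tag filter and was not tested. Further regions were chr1:202566287-202566990 (-0.46) and chr1:203295738-203296355 (-0.43), in which the groups overlapped.

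**Figure D5:**
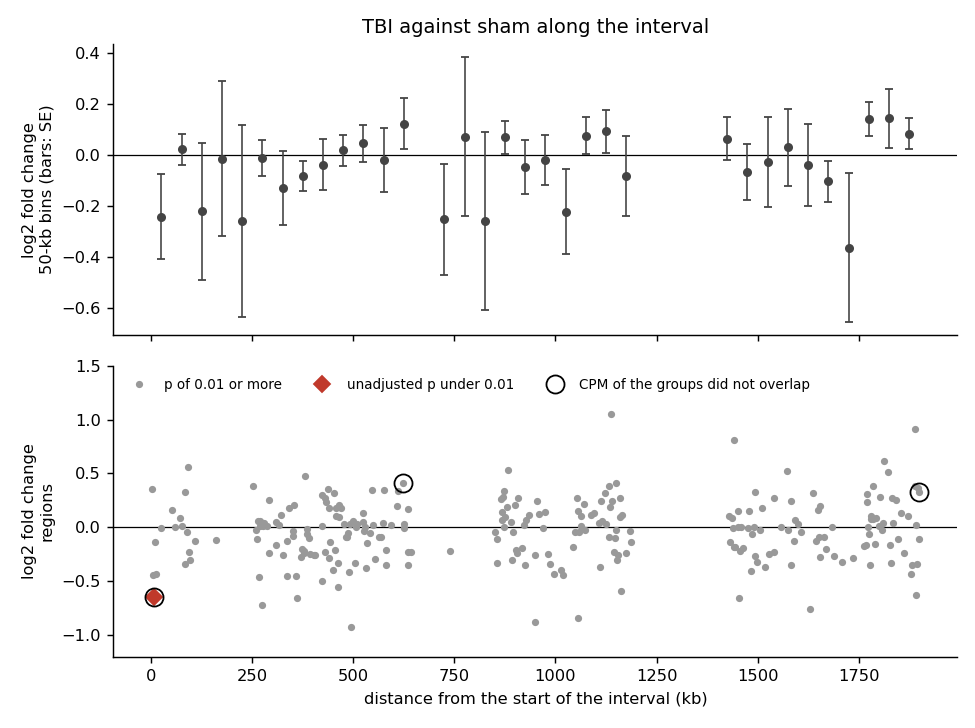
Fitted log2 fold change, TBI over sham, for the 33 tested bins of 50 kb (upper panel, bars are SE) and the 272 tested regions (lower panel) against distance from the start of the interval in kb. Values scatter around 0 along the whole interval; the diamond is the 1 region with an unadjusted p under 0.01 and circles mark the 3 regions whose groups did not overlap.

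Summing tags over 50-kb bins gave no call. None of the 33 tested bins had an unadjusted p under 0.01 by edgeR (background 0.259% of 49445 bins) and none had one under 0.05, where 2.58% of all bins did. No bin passed after Benjamini-Hochberg adjustment in edgeR (background 0%). Of the 33 bins, 13 were higher and 20 lower in TBI rats, and over all 49445 tested bins 23195 were higher and 26250 lower. The median log2 fold change in the interval was -0.02 (range -0.36 to 0.14), against -0.0088 over all tested bins. The SE of a bin's log2 fold change ranged from 0.06 to 0.38, largest in the sparse bins.

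The smallest p of a bin belonged to the bin at 1750 kb. It had 24, 27.2, 26.1, 24.5 and 26.2 CPM in sham rats and 25, 26.9, 29.4, 28.5 and 31 CPM in TBI rats. TBI rats 8, 9 and 10 were above all sham rats, and the log2 fold change was 0.14 ± 0.07 (SE; edgeR, unadjusted p = 0.0533). The bins at 1850 kb (0.08) and 600 kb (0.12) followed among those higher in TBI rats, and the latter was at 0.04 without sham rat 5. Among those lower, the bins at 0 kb (-0.24), 350 kb (-0.08) and 1000 kb (-0.22) had the smallest p-values. Without sham rat 5 these were -0.12, -0.08 and -0.02.

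Without sham rat 5, 4 of 270 tested regions (1.48%) had an unadjusted p under 0.01 by edgeR, against 0.792% of all regions tested without it. Of these, 2 were higher in TBI rats and 2 lower, and none passed after adjustment. The 4 regions under 0.01 were chr1:202305555-202306486 (log2 fold change -0.65), chr1:202566287-202566990 (-0.62), chr1:203436271-203436903 (1.28) and, named after its values were seen, chr1:204189374-204189885 (1.34). At the looser threshold of 0.05 there were 16 regions. The share of all regions at that threshold was not recorded for this fit, so that the count has no background beside it. Of the 33 bins, 3 had an unadjusted p under 0.05 by edgeR, for which the share of all bins was also not recorded. At a p under 0.01 there was 1 bin (3.03%; background 0.727%). This bin, at 1100 kb, had 24.3, 25.3, 23.9 and 22.8 CPM in sham rats 1 to 4 and 25.7 to 29.7 CPM in TBI rats, while sham rat 5 was above all of them at 31.6 CPM. Its log2 fold change was 0.18 without that library and 0.09 with it.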

How the data were processed

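The authors captured methylated DNA with a methyl-binding protein, sequenced it as short single reads, aligned the reads to RN4 with BWA, called regions between pairs of libraries with MACS and merged them with bedtools. Regions therefore entered the matrix because some libraries differed there. The deposited values are raw tag counts per region and rat, not scaled for depth. Whether positions count from 0 or 1 is not given in the sources used here, and they are printed as deposited.

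Groups were taken from the treatment labels and columns were matched through the rat number. The matrix had 0 sample columns beside those of the 10 rats. Counts of all regions with a tag sum of at least 117 (50th percentile), and counts summed over 50-kb bins with at least 100 tags, entered edgeR 4.0.16 under R 4.3.3 (quasi-likelihood test, TMM, trended dispersion, glmQLFit and glmQLFTest, no covariate). Adjustment was over the whole table, from which the interval was read off. A region was put in the bin that holds its midpoint. Log2 CPM used a prior count of 2. An unadjusted p under 0.01 was called, a threshold that the study's methods also use. Those methods describe a negative binomial model in edgeR and do not name a quasi-likelihood test, so that the tests may differ. For methylation in this model those methods list fewer control rats than the 5 sham rats tested here, and they do not name the rat left out. The calls are therefore not from the same set of rats. Each rat's interval measures were compared by exact permutation tests. Scripts were tested on simulated data. Counting error sets the precision of regions with few tags, and p-values cover the spread between rats.

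Named regions were the 5 smallest p in each direction, the 5 highest mean CPM, the 3 longest, the 5 largest SD (mean of at least 10 tags) and the 3 smallest SD. Named bins were the 3 with most and fewest regions, the 5 with most tags and the 3 smallest p in each direction. The members and lists were chosen with earlier results of these data known. Alternatives were other normalizations, tests (with DESeq2 1.42.0), filters and bins, and leaving out each rat. Region sequences were not analysed here.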

Additional observations from a re-analysis of the deposited data

Results flagged for a closer look

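In 6 of 86 sets of 5 rats from the named regions and bins and the per-rat measures, 1 rat was far from the other 4 of its group by Dixon's test. For independent sets chosen without regard to their values, chance gives about 1 set in 20, or 4.3 sets. Many sets here were named for a small p or for a large or small SD. Some regions lie in named bins, and bins without regions can give no such rat. The count of 6 can therefore not be weighed against 4.3. Sham rat 5 was the rat apart in 3. It had 2.85 CPM in chr1:202793010-202793621, where the next sham rat had 1 CPM, 3.05 CPM in chr1:204127563-204128676, where the next had 1.08 CPM, and 14.5 CPM in the bin at 1000 kb, where the next had 8.57 CPM. TBI rat 10 was apart in the other 3. It was high in chr1:202922820-202924102, with 4.92 CPM against 3.97 CPM in the next TBI rat, and in the bin at 600 kb, with 23.3 CPM against 20.9 CPM. It was low in chr1:203740692-203741028, with 0.725 CPM against 1.15 CPM.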

How the results depend on the processing

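No paired analysis was possible because no rat number occurs in both groups. The count of 1 region with a p under 0.01 became 7 at a p under 0.05 (2.57%, against 2.45% of all tested regions), 3 with loess offsets (1.1% against 0.356%) and 4 with every region of at least 1 tag (0.638% against 0.535%). In the last setting 3 of the 4 were lower in TBI rats and rested on tags of sham rat 5 (34, 24 and 16 tags, with 7 to 9 rats at 0). Leaving out 1 rat at a time gave 1 to 4 regions, with 4 without sham rat 5 (1.48% against 0.792%) and 2 without TBI rat 7 (0.735% against 0.196%), and 0 to 1 bins. Over the whole matrix these fits called 613 to 2841 regions. With all rats, 0 bins passed under the other normalizations, tests (DESeq2 included), filters and bin widths. The region chr1:202305555-202306486 kept its direction under 18 alternatives (log2 fold change -0.72 to -0.56, p 0.00102 to 0.0129 by the tool of each setting), with 17 under 0.01. Leaving out 1 rat at a time, the difference between the groups in the share of chromosome 1 tags ranged from -0.0209 to 0.0166 percentage points, that in regions without tags from -9.2 to 23.3, and that in the share of the 10 most tagged bins from -1.8 to 1.28 (-0.433 without sham rat 2 and -0.268 without TBI rat 7). Named log2 fold changes kept their sign in all 276 values under alternatives, but their size did not always hold. Apart from those that moved without sham rat 5, chr1:202566287-202566990 went from -0.46 to -0.26 without sham rat 2, and the bins at 0, 350, 600 and 1850 kb went to -0.15 without TBI rat 7, -0.05 without TBI rat 8, 0.19 without sham rat 4 and 0.05 without sham rat 3. For chr1:202793010-202793621 there was no value without sham rat 5. The ratio of region density was 1.29 to 1.4 under other bins or the filter. Regions below the filter, with a median of 3 tags per rat, were tested only in the setting of at least 1 tag.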
